A study of Mus musculus with 12 samples.

Results

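The proteasome genes of the RNA-seq table were taken by symbol, as the rows named Psma, Psmb, Psmc, Psmd, or Psme followed by a number. Of the 23309 genes listed, 44 matched, and in 43 of these 2 or more of the 12 libraries were at 1 FPKM or above, as in 11516 genes in all. The remaining gene, Psmb11, which encodes the catalytic subunit of the thymus form, was listed between 0.0938 and 0.145 FPKM. One of the 43 genes, Psmc3ip, shares only the letters of the symbol and encodes a meiotic recombination protein. FPKM counts fragments relative to the length of the transcript and the size of the library. The authors then normalized the values to added synthetic RNAs. Levels of different genes can be compared as far as that normalization allows.

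The cells were mouse bone marrow progenitors positive for CD117, made to grow without limit by a retrovirus that expresses ER-HoxB8, a fusion of HoxB8 with the estrogen receptor. All 6 groups carry this fusion and grew in IL-3. Estradiol (E2) holds the cells immature, and RNA of wild-type (WT) and of HMGN1-OE cells was collected at the withdrawal of E2 (0 h) and 36 or 96 h later, in 2 libraries for each group. HMGN1-OE cells come from mice with a transgene for human HMGN1, a nucleosome-binding protein. The immortalized cultures stand for the mice only as far as these cultures do, and the sources used here give no number of clones or animals for them. The p-values rest on the spread between these libraries. For the values as deposited, the test takes this spread from a trend over expression in all genes, not from each gene.

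The proteasome degrades proteins tagged with ubiquitin. Its core particle is built of alpha rings, which gate the entrance, around beta rings, which hold the catalytic sites, and the 19S regulator on its end binds, unfolds, and feeds the substrates in. In immune cells the 3 constitutive catalytic subunits, Psmb5, Psmb6, and Psmb7, can be exchanged for the inducible Psmb8, Psmb9, and Psmb10, which gives the immunoproteasome and favors peptides that fit MHC class I. The activator PA28, made of Psme1 and Psme2, is another gate that interferon gamma is known to induce.

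The promoters of a constitutive subunit, Psmb5, of 2 inducible subunits, Psmb8 and Psmb9, and of the PA28 subunit Psme1 are printed here as examples from the groups of genes that are compared, and no relation of a motif to a change in expression was tested. The windows are those of RefSeq for the build GRCm38.p6, from 250 bases before to 50 bases after the start of the gene, and they were found for 36 of the 43 genes. Psmb5 is read from the minus strand of chr14:54617946-54618245, Psmb8 from the plus strand of chr17:34197945-34198244, Psmb9 from the minus strand of chr17:34187281-34187580, and Psme1 from the plus strand of chr14:55578244-55578543. Capitals mark the motif matches named after the sequences, each written 5′ to 3′.
Psmb5: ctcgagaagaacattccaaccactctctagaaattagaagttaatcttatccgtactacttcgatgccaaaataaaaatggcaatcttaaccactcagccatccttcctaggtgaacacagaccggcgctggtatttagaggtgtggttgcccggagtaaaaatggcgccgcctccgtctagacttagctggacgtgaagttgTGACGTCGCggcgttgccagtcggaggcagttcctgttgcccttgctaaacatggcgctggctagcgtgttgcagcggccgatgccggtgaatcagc
Psmb8: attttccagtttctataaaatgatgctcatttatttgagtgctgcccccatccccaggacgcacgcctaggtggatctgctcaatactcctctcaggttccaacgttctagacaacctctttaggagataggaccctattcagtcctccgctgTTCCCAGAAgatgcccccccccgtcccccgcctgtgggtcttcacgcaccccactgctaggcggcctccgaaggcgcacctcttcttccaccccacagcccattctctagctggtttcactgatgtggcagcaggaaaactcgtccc
Psmb9: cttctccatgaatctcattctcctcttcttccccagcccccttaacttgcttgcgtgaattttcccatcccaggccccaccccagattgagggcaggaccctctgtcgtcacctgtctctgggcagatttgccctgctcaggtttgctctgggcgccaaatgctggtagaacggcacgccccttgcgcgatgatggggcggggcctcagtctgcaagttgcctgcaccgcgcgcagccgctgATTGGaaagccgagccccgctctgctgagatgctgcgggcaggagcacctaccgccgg
Psme1: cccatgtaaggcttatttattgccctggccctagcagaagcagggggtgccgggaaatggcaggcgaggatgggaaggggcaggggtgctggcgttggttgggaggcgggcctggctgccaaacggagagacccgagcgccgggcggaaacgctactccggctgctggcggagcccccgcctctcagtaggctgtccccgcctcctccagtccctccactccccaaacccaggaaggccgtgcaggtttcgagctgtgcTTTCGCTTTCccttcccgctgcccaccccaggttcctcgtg

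The capitals in Psmb5 are a match to the antioxidant response element, searched as TGACNNNGC on both strands, at position -47 from the start site. In Psmb8 they are a match to the gamma-activated site, TTCNNNGAA, at position -97. The capitals in Psmb9 are the CCAAT box on the opposite strand, and those in Psme1 are the interferon-stimulated response element (GAAA, any 2 bases, GAAA) on the opposite strand. The window of Psmb9 overlapped that of Tap1, a peptide transporter gene on the other strand, by 275 bases.

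Among the 36 genes with a window, 4 held the interferon-stimulated response element (11.1%, against 3.99% of 27025 genes), and these were Psmb3, Psmd4, Psmd9, and Psme1. TTCNNNGAA was found in 2 (5.56%, against 9.55% of all genes), Psmb8 and Psmd2. TGACNNNGC was found in 6 (16.7%, against 14.0%), among them Psmb5 and Psmb6. The ETS site CCGGAAG was found in 13 (36.1%, against 9.93%). These were Psma6, Psmc1, Psmc2, Psmc3ip, Psmc6, Psmd2, Psmd4, Psmd6, Psmd11, Psmd12, Psmd13, Psme3, and Psme4. CCAAT was found in 14 (38.9%, against 41.1%), the E-box CACGTG in 4 (11.1%, against 8.09%), and the NRF1 palindrome (GCGC on both sides of AT) in 1, Psma2 (2.78%, against 1.07%). The motifs can overlap each other, and a match is a description of the letters in the window.

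The summed FPKM of a library ran from 228955 to 1442573 and was lowest in a WT library at 96 h. These sums follow the spike-in normalization of the values and are not read numbers, so the depth is unknown. The median of the changes of all tested genes from 0 to 96 h was -1.75 on the log2 scale in WT and -1.28 in HMGN1-OE cells. Changes are therefore given as deposited, with the fall of all genes in them, or with each library centred on its median gene, which gives changes relative to that gene. Centring shifts all genes alike, so a change from 0 to 96 h given only relative to the median becomes the value as deposited when -1.85 is added in WT and -1.31 in HMGN1-OE cells. At 0 h the immature myeloid markers Kit, Cd34, Mpo, Elane, Prtn3, and Ctsg were all listed at 12.1 FPKM or more. The neutrophil gene S100a8 went from 1411 and 451 FPKM at 0 h to 69948 and 29366 FPKM at 96 h in WT. In HMGN1-OE cells it went from 785 and 499 to 54572 and 83718 FPKM. As deposited, 7 of 9 neutrophil markers were called higher at 96 h and 2 lower in WT, and 8 higher and 1 lower in HMGN1-OE cells. All 6 immature markers were called lower in WT, and 3 lower and 1 higher in HMGN1-OE cells. Among tested genes 4.31% were called higher and 77.2% lower in WT, and 5.08% and 62.4% in HMGN1-OE cells. Of 5 lymphoid genes 2 passed the filter, and the list summed to 20.4 to 30.5 FPKM at 0 h, most of it from the early B cell factor Ebf1, and to 0.471 to 0.786 FPKM at 96 h. Of 5 erythroid or megakaryocyte genes 3 passed, Hbb-b1, Pf4, and Itga2b, and the list summed to 16.1 to 71.1 FPKM at 0 h and 2.08 to 13.5 FPKM at 96 h. Some markers of other myeloid cells were higher at 96 h and others lower. Of 5 eosinophil, basophil, or mast cell genes, 2 were called higher and 1 lower as deposited in each genotype. Of 4 macrophage or dendritic cell genes, 2 were called higher in each genotype, and 1 lower in WT and 2 lower in HMGN1-OE cells. In WT 4.31% of tested genes were called higher and 77.2% lower, and in HMGN1-OE cells 5.08% and 62.4%. The eosinophil gene Epx was at 1.64 and 0.409 FPKM at 0 h and 153 and 49.1 FPKM at 96 h in WT, the eosinophil gene Prg2 at 9.88 and 2.54, then 1970.3 and 933 FPKM, and the macrophage gene Csf1r at 0.408 and 1.13, then 7.17 and 13.5 FPKM. In HMGN1-OE cells Epx was at 4.72 and 4.33 FPKM at 0 h and 14.1 and 25.3 FPKM at 96 h, Prg2 at 19.8 and 12.1, then 186 and 472 FPKM, and Csf1r at 0.324 and 0.399, then 7.52 and 8.64 FPKM. Emr1 of the macrophage or dendritic cell list went from 47.6 and 55.4 to 18.7 and 13.9 FPKM in WT. In HMGN1-OE cells it went from 119 and 37.7 to 9.44 and 17.9 FPKM. The mast cell gene Cpa3 went from 255 and 540 to 159 and 155 FPKM in WT and from 516 and 345 to 39.1 and 168 FPKM in HMGN1-OE cells. The part of these markers in the changes over time was not tested. At 0 h mouse Hmgn1 was at 85.7 and 141 FPKM in the WT libraries, and HMGN1-OE cells had 201 and 97.6 FPKM. It does not measure the human transgene, so the labels have no check from it.

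At 0 h the highest levels of the family were those of core particle genes. The 7 genes of the alpha ring had mean levels over the 4 libraries from 300.4 FPKM (Psma3) to 532 FPKM (Psma7), and the 4 structural genes of the beta ring from 384 FPKM (Psmb2) to 472 FPKM (Psmb1). The constitutive catalytic genes lay close together, at 237 FPKM for Psmb6, 278 FPKM for Psmb5, and 301 FPKM for Psmb7. The inducible catalytic genes were spread more widely, at 71.6 FPKM for Psmb10, 230.4 FPKM for Psmb9, and 432 FPKM for Psmb8. Undifferentiated cells already expressed all 3 inducible genes, and Psmb8 stood above its constitutive counterpart.

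In the 19S regulator, the 6 ATPases that unfold the substrate ranged from 160.3 FPKM (Psmc2) to 317 FPKM (Psmc1). The 11 non-ATPase subunits ranged from 84.2 FPKM (Psmd11) to 292 FPKM (Psmd7, a scaffold of the lid that holds the deubiquitinase Psmd14). The assembly chaperones Psmd9, Psmd10, and Psmd5, which leave before the particle is complete, were at 21.6, 31.9, and 88.4 FPKM. Psmd9 and Psmd10 lay under the range of the non-ATPase subunits and Psmd5 within it. Of the activators, Psme1 and Psme2 stood at 195 and 217 FPKM, the nuclear PA28 gamma gene Psme3 at 169 FPKM, and Psme4, which encodes PA200, at 58.6 FPKM. Psma8, the alpha subunit of the testis, had a mean of 3.31 FPKM.

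The 43 genes made up 1.02% to 1.10% of the summed FPKM of a library at 0 h, 0.976% to 1.05% at 36 h, and 0.369% to 0.486% at 96 h. The libraries of 96 h did not overlap those of the earlier times. The sum at 96 h holds highly expressed neutrophil genes such as S100a8, and in the WT library 1 at 96 h S100a9 was listed at 0.0511 FPKM where the other WT library had 26546 FPKM, so the sum, and with it the share, is affected in that library.

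**Figure D1:**
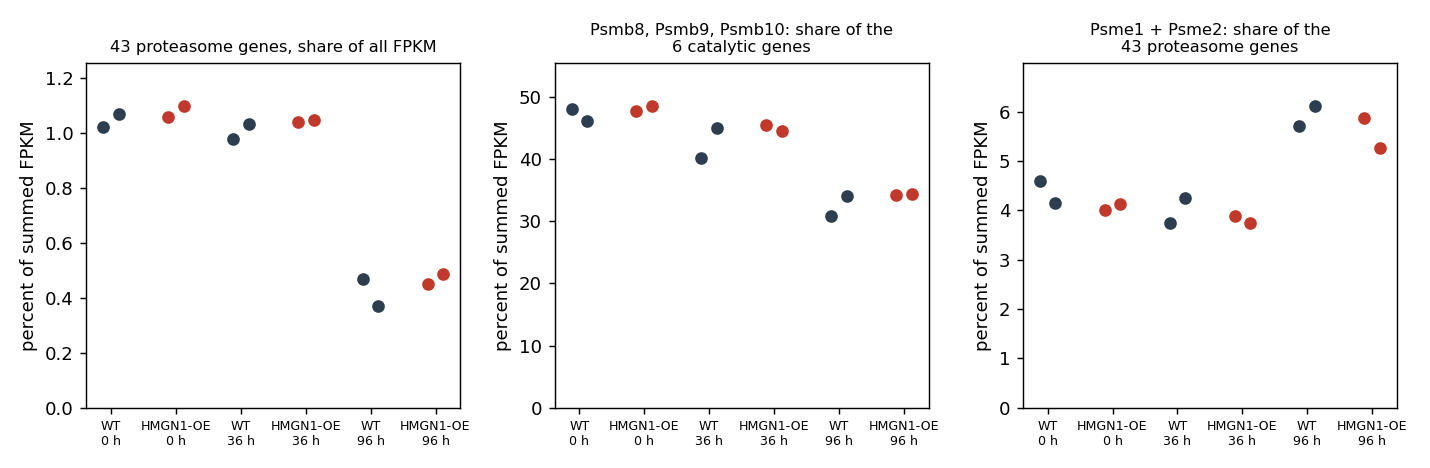
The left panel plots the share of the 43 proteasome genes in the summed FPKM of each library, the middle panel the share of Psmb8, Psmb9, and Psmb10 in the summed FPKM of the 6 catalytic genes, and the right panel the share of Psme1 and Psme2 in the 43 genes, all in percent. Each point is 1 library, WT in dark grey and HMGN1-OE in red. The family's share at 96 h lay between 0.369% and 0.486%, under all libraries of 0 and 36 h, while the share of Psme1 and Psme2 rose to between 5.26% and 6.12%.

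From 0 to 36 h no proteasome gene passed the test. The median change of the 43 genes was 0.49 on the log2 scale in WT, with a median of all tested genes of 0.47, and 0.04 in HMGN1-OE cells, with 0.06 for all genes. These medians rested on single libraries of 0 h, at -0.01 without library 1 and 0.96 without library 2 in WT, and 0.32 and -0.23 likewise in HMGN1-OE cells. None of the 43 was called by limma at an adjusted p under 0.05 in either genotype, where 0.617% of tested genes were called in WT and 1.8% in HMGN1-OE cells. None had an unadjusted p under 0.05. With the libraries centred the changes ran from -0.28 to 0.19 in WT and from -0.28 to 0.29 in HMGN1-OE cells. Again none was called or had an unadjusted p under 0.05, where 0.00868% and 0.13% of tested genes were called by limma.

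From 0 to 96 h all 43 genes fell in both genotypes as deposited. The median change was -2.73 on the log2(FPKM + 1) scale in WT, against -1.75 for all tested genes, and -1.92 in HMGN1-OE cells, against -1.28. All 43 were called lower in WT, where 77.2% of tested genes were, and all 43 in HMGN1-OE cells, where 62.4% were. The 4 libraries compared did not overlap for 42 genes in WT (80.9% of tested genes were lower without overlap) and 42 in HMGN1-OE cells (82.8%), the exception in both being Psma8. In bulk samples, fewer cells of a type and less RNA per cell cannot be told apart. In HMGN1-OE cells the count of calls rested on single libraries, with 16 genes called without library 1 of 96 h and 18 without library 1 of 0 h, and the calls over all tested genes went down with them, from 67.5% in either direction to 33.7% and 33.6%.

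Most of the family still fell when set against the library median. In WT 40 of 43 genes were called lower, where 33.8% of tested genes were lower and 36.5% higher, with a median of -0.88 against 0.09 for all genes. In HMGN1-OE cells 37 of 43 were called lower, where 32.5% were lower and 30.9% higher, with a median of -0.61 against 0.03. All 37 were among the 40 of WT, and the 3 called in WT only were Psmd13, a lid subunit, and the PA28 genes Psme1 and Psme2. For these 3 genes the difference between the genotypes was not called. Leaving out each library in turn gave 39 to 41 genes in WT and 28 to 37 in HMGN1-OE cells, where 60% to 71.5% and 49.1% to 56.1% of tested genes were called in either direction, against 70.3% and 63.4% with all libraries.

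By role, the fall relative to the median was called in WT for 6 of 7 alpha ring genes, 4 of 4 structural beta genes, 3 of 3 constitutive and 3 of 3 inducible catalytic genes, 6 of 6 ATPases, 11 of 11 non-ATPase subunits, 2 of 3 chaperones, and all 4 activators. The medians in WT were -1.32 for the alpha ring, -0.94 for the structural beta genes, -0.93 for the constitutive catalytic genes, -1.27 for the inducible catalytic genes, -1.003 for the ATPases, -0.83 for the non-ATPase subunits, and -0.54 for PA28 alpha and beta. In HMGN1-OE cells they were -0.87, -0.68, -0.61, -1.20, -0.70, -0.61, and -0.28 in the same order. Within the alpha ring, whose subunits stand in equal numbers in the particle, the changes ran from -1.83 for Psma5 to -0.28 for Psma6 in WT.

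**Figure D2:**
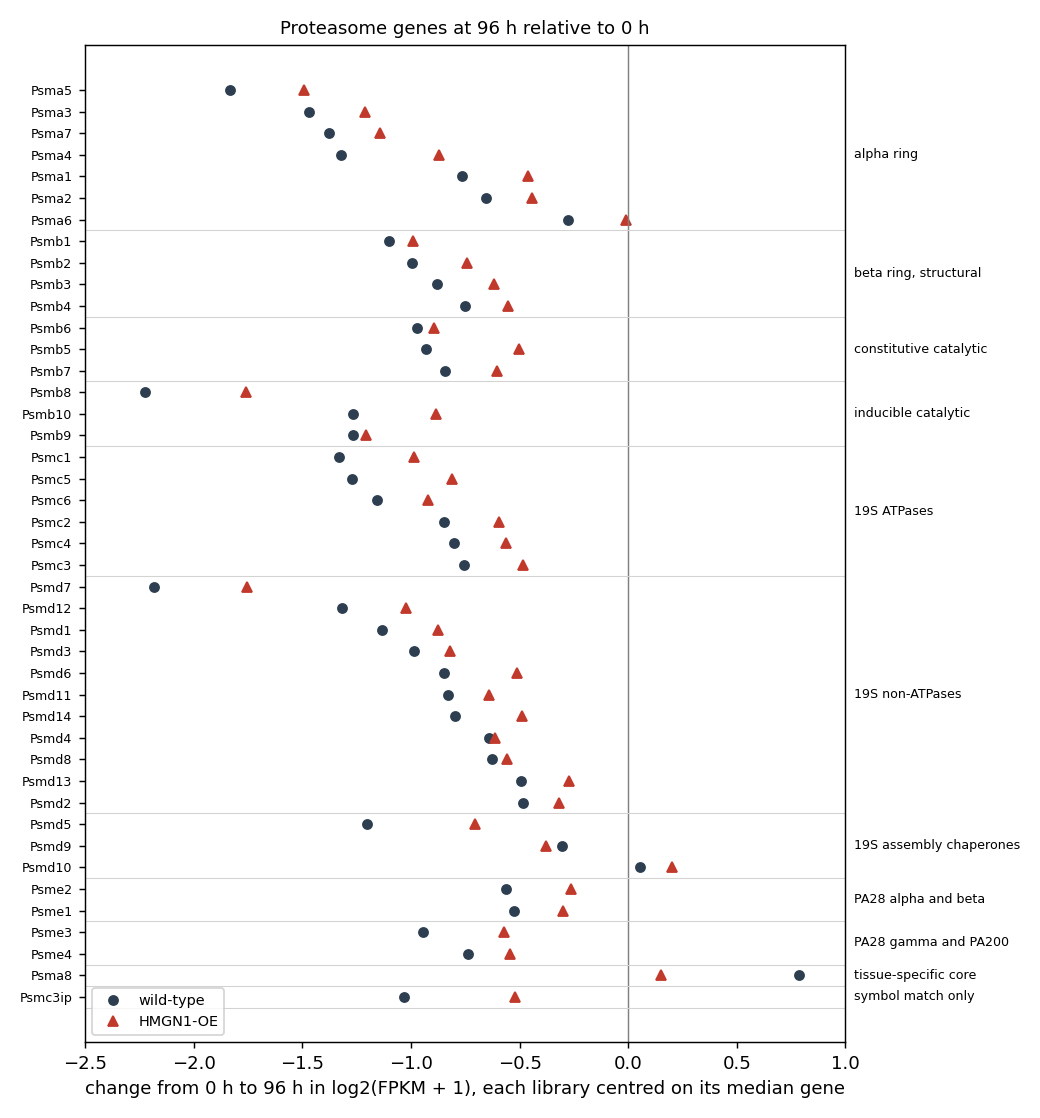
Each row is 1 of the 43 genes, ordered by role and then by the WT change, and the horizontal axis is the change from 0 to 96 h in log2(FPKM + 1) with each library centred on its median gene, as the difference of group means of 2 libraries, in WT (dark circles) and HMGN1-OE cells (red triangles). Psmb8 at -2.22 and Psmd7 at -2.18 lie farthest to the left in WT, and Psmd10 and Psma8 to the right of 0. Psma8 was under 1 FPKM in both WT libraries of 96 h, where the pseudocount of 1 shrinks a fall.

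The largest fall relative to the median was that of Psmb8, the inducible counterpart of Psmb5. Psmb8 was listed at 304 and 597 FPKM in the WT libraries of 0 h, at 428 and 597 FPKM at 36 h, and at 36.2 and 16.4 FPKM at 96 h. In HMGN1-OE cells it was at 485 and 340.4 FPKM, then 381 and 379 FPKM, then 37.04 and 60.8 FPKM. All 4 libraries of 96 h lay far under the 8 libraries of the earlier times, in both genotypes. The change relative to the median was -2.22 ± 0.14 (SE, n = 2 libraries a group, limma adjusted p = 4.84e-06) in WT and -1.76 ± 0.14 (adjusted p = 1.84e-05) in HMGN1-OE cells. As deposited it was -4.07 in WT, the 261st lowest of the 11516 tested genes, and -3.07 in HMGN1-OE cells.

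Psmd7, the lid scaffold, followed closely. It was listed at 212 and 401 FPKM at 0 h, 318 and 452 FPKM at 36 h, and 28.7 and 9.80 FPKM at 96 h in WT, and at 330.0 and 227, 268 and 256, and 25.4 and 39.7 FPKM in HMGN1-OE cells. Its neighbor in the lid, the deubiquitinase Psmd14, went from 149.6 and 295 to 53.8 and 19.8 FPKM in WT. Against the median gene Psmd7 changed by -2.18 ± 0.17 (SE, limma adjusted p = 9.17e-06) in WT and by -1.75 ± 0.17 (adjusted p = 4.17e-05) in HMGN1-OE cells, and Psmd14 by -0.80 and -0.49. The ubiquitin receptors Psmd2 and Psmd4 changed by -0.48 and -0.64 in WT, and both were called lower in both genotypes.

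At the other end was Psmd10, the chaperone gankyrin. Its libraries were at 23.4 and 45.1 FPKM at 0 h, 36.3 and 49.3 FPKM at 36 h, and 13.5 and 5.51 FPKM at 96 h in WT, and at 35.4 and 23.8, 29.5 and 30.3, and 11.3 and 14.8 FPKM in HMGN1-OE cells. As deposited it was called lower in both genotypes, with changes of -1.79 and -1.11. Centring turned the sign, to 0.06 ± 0.10 (SE, limma adjusted p = 0.616) and 0.20 ± 0.10 (adjusted p = 0.0943), with no call. With the libraries centred, Psmd10 was called higher in HMGN1-OE cells under a pseudocount of 0.1 and under a filter on a mean of at least 5 FPKM. Psma6 of the alpha ring was also not called on this scale, at -0.28 in WT and -0.01 in HMGN1-OE cells.

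Psma8 behaved unlike the rest, with 1 high and 1 low library in each group. It was listed at 6.14 and 0.141 FPKM at 0 h, 0.129 and 17.1 FPKM at 36 h, and 0.802 and 0.041 FPKM at 96 h in WT. In HMGN1-OE cells the values were 6.35 and 0.618, 0.554 and 9.17, and 0.155 and 1.06 FPKM. As deposited it changed by -1.06 in WT and -1.16 in HMGN1-OE cells, both called lower, and the value without library 1 of 0 h was 0.26 in WT and -0.07 in HMGN1-OE cells, against -2.38 and -2.25 without library 2 of 0 h. The libraries of all groups overlapped, and the standard error of the test as deposited comes from a trend over expression and does not hold this spread. Relative to the median it had the opposite sign and was not called (0.79 ± 1.46 in WT, SE, limma adjusted p = 0.644). There the fit uses each gene's own spread in part. Both WT values of 96 h lay under the pseudocount of 1, which shrinks the fall. Centring adds back the whole fall of the median gene, so the value of 0.79 lies too high.

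The constitutive and inducible catalytic genes are set side by side next, since they occupy the same places in the beta ring. Psmb5, the chymotrypsin-like subunit, was at 211 and 372 FPKM at 0 h, 345 and 439 FPKM at 36 h, and 63.6 and 24.9 FPKM at 96 h in WT. In HMGN1-OE cells it was at 316 and 211, 283 and 287, and 58.8 and 90.04 FPKM. Psmb8 lay above Psmb5 in all 8 libraries of 0 and 36 h and under it in all 4 libraries of 96 h. The log2 ratio of Psmb8 to Psmb5, which does not depend on the scale of the library apart from the pseudocount, was 0.63 ± 0.08 (SD, n = 4 libraries of both genotypes) at 0 h, 0.40 ± 0.06 at 36 h, and -0.65 ± 0.11 at 96 h.

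The ratio fell by 1.27 from 0 to 96 h without overlap of the libraries (exact permutation test, two-sided, p = 0.0286, which 4 against 4 libraries cannot go under, and adjusted p = 0.0857 by Benjamini-Hochberg over 9 tests). It was 0.23 lower at 36 h than at 0 h and 1.04 lower at 96 h than at 36 h, each without overlap and with the same exact p. Both genotypes showed the fall, with group means of 0.60, 0.38, and -0.69 in WT and 0.65, 0.41, and -0.61 in HMGN1-OE cells, and the libraries of the genotypes overlapped at each time.

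**Figure D3:**
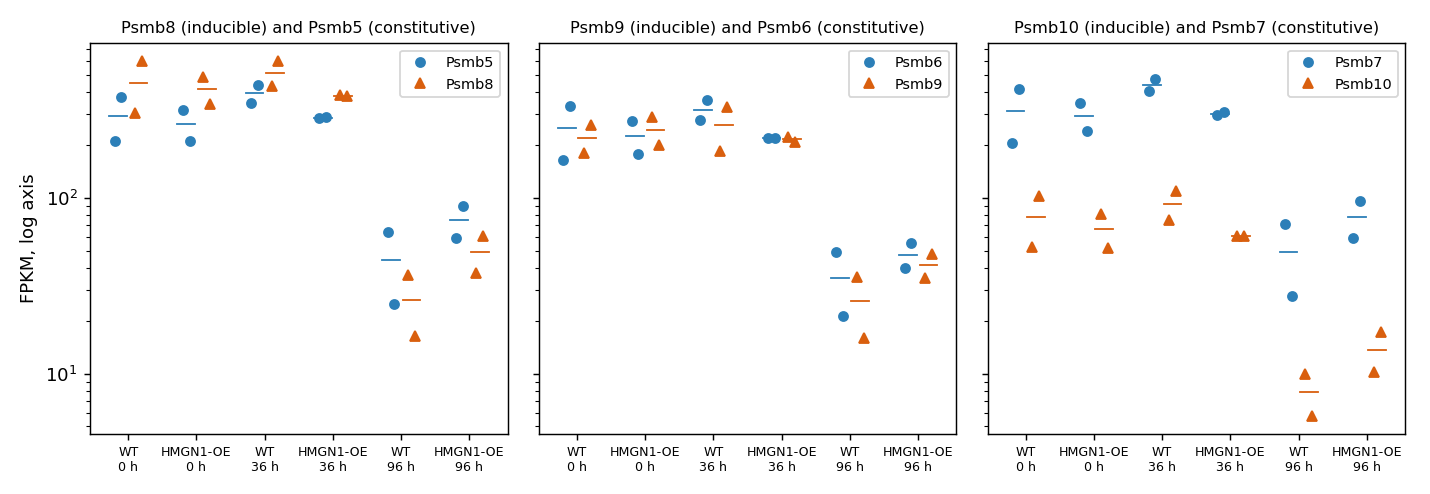
Each panel plots 1 inducible gene (orange triangles) and its constitutive counterpart (blue circles) in FPKM on a log axis, with 1 point per library, a line at the mean of 2 libraries, and the 6 groups on the horizontal axis. All 6 genes are lower at 96 h, and Psmb8 passes from above Psmb5 to under it, with means over the 4 libraries of 432 and 278 FPKM at 0 h and 37.6 and 59.4 FPKM at 96 h.

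Psmb9, the inducible counterpart of the caspase-like subunit Psmb6, was at 179 and 258 FPKM at 0 h, 185 and 329 FPKM at 36 h, and 35.6 and 16.02 FPKM at 96 h in WT. In HMGN1-OE cells it was at 286 and 198, 221 and 208, and 34.7 and 47.96 FPKM. Psmb6 was at 164 and 333, 276 and 357, and 48.95 and 21.2 FPKM in WT and at 272 and 178, 218 and 217, and 40.03 and 54.9 FPKM in HMGN1-OE cells. Psmb9 lay above Psmb6 in 3 of 4 libraries of 0 h and 1 of 4 of 36 h, and under it in all 4 of 96 h. The log2 ratio was 0.00 ± 0.24 (SD, n = 4) at 0 h and -0.31 ± 0.13 at 96 h, a change of -0.30 with overlapping libraries (exact permutation test, two-sided, p = 0.0857, adjusted 0.129).

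Psmb10, the counterpart of the trypsin-like subunit Psmb7, was the lowest catalytic gene at each time. It was listed at 52.2 and 102, 74.5 and 109, and 9.90 and 5.73 FPKM at 0, 36, and 96 h in WT, and at 80.3 and 51.7, 60.4 and 60.4, and 10.3 and 17.1 FPKM in HMGN1-OE cells. Psmb7 was at 205 and 412, 403 and 472, and 70.8 and 27.6 FPKM in WT and at 347 and 238, 295 and 306, and 59.3 and 95.7 FPKM in HMGN1-OE cells. Psmb7 exceeded Psmb10 in all 12 libraries. The log2 ratio went from -2.06 ± 0.10 (SD, n = 4) at 0 h to -2.41 ± 0.26 at 96 h, a change of -0.35 with overlapping libraries (exact permutation test, two-sided, p = 0.0857, adjusted 0.129). With a pseudocount of 0.1 in place of 1 the change was -0.44 and the exact p 0.0286.

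**Figure D4:**
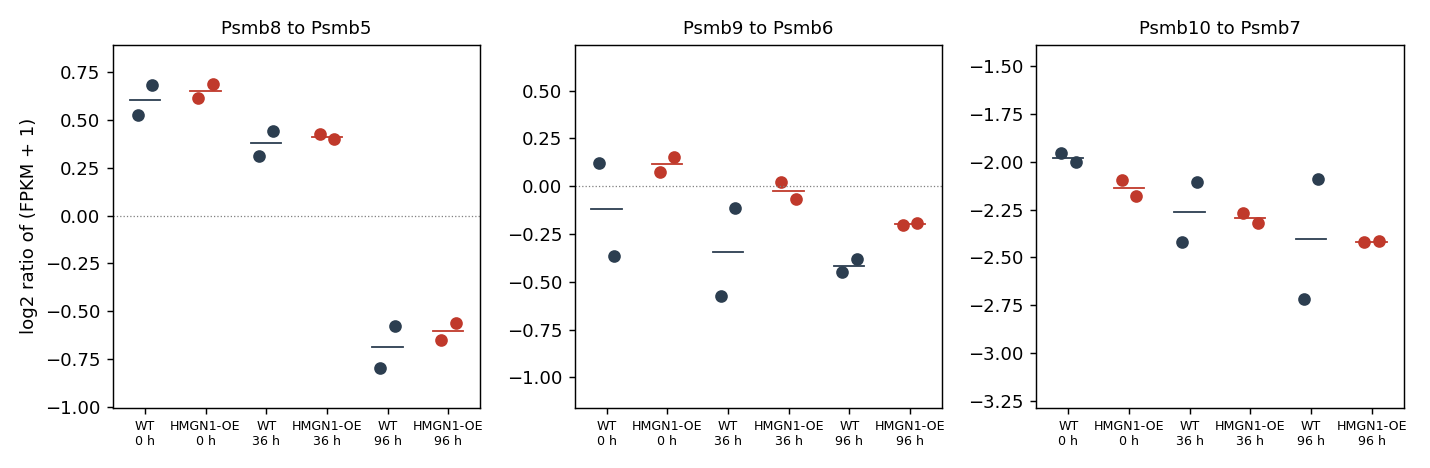
Each panel plots the log2 ratio of (FPKM + 1) of an inducible gene to its constitutive counterpart in each library, with lines at the mean of 2 libraries, WT in dark grey and HMGN1-OE in red. The vertical axes have the same span but different centers. The ratio of Psmb8 to Psmb5 falls from a mean of 0.63 at 0 h to -0.65 at 96 h without overlap, while the libraries of 0 and 96 h overlap for the ratios of Psmb9 to Psmb6 and Psmb10 to Psmb7.

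Relative to the median, the 3 constitutive genes changed by -0.93 (Psmb5), -0.97 (Psmb6), and -0.84 (Psmb7) in WT, and by -0.50, -0.89, and -0.61 in HMGN1-OE cells. The inducible genes Psmb9 and Psmb10 changed by -1.27 and -1.27 in WT and by -1.20 and -0.88 in HMGN1-OE cells. All of these were called lower. As a share of the summed FPKM of the 6 genes, Psmb8, Psmb9, and Psmb10 made up 46.1% to 48.5% at 0 h, 40.2% to 45.4% at 36 h, and 30.8% to 34.3% at 96 h. The 3 times did not overlap in this share.

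The PA28 genes, which interferon gamma induces together with the inducible subunits, had smaller measured falls than the 6 catalytic genes, and this difference was not tested. Psme1 was at 160.5 and 248, 206 and 304, and 56.6 and 25.1 FPKM at 0, 36, and 96 h in WT, and at 223 and 149, 178 and 168, and 50.5 and 68.6 FPKM in HMGN1-OE cells. Psme2 was at 159 and 314, 243 and 327, and 63.4 and 26.6 FPKM in WT, and at 224 and 170.2, 190.5 and 184, and 56.7 and 74.1 FPKM in HMGN1-OE cells. Psme2 lay above Psme1 in 11 of 12 libraries. Centred on the median, Psme1 changed by -0.52 (limma adjusted p = 0.00541) and Psme2 by -0.56 (adjusted p = 0.00192) in WT, and by -0.30 and -0.26 in HMGN1-OE cells, where neither was called. Psme1 and Psme2 made up 4.002% to 4.59% of the FPKM of the 43 genes at 0 h, 3.74% to 4.24% at 36 h, and 5.26% to 6.12% at 96 h.

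The nuclear activator PA28 gamma and PA200 were lower at 96 h too. Psme3 went from 124 and 232 FPKM at 0 h through 212 and 277 FPKM at 36 h to 38.8 and 14.4 FPKM at 96 h in WT, and from 191 and 130.1 through 169 and 152 to 34.9 and 50.7 FPKM in HMGN1-OE cells. Psme4 went from 44.7 and 84.5 through 87.2 and 98.8 to 15.01 and 5.80 FPKM in WT, and from 61.3 and 43.9 through 63.8 and 56.7 to 12.02 and 15.4 FPKM in HMGN1-OE cells. With centred libraries Psme3 changed by -0.94 and -0.57 and Psme4 by -0.74 and -0.54 in WT and HMGN1-OE cells, all called lower.

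HMGN1-OE was compared with WT at each time, the genotype comparison of the study. None of the 43 genes was called by limma at 0, 36, or 96 h, and none had an unadjusted p under 0.05 as deposited. The medians of the family were -0.09, -0.51, and 0.71 on the log2 scale at 0, 36, and 96 h, against -0.12, -0.54, and 0.36 for all tested genes. The median at 0 h turned with single libraries, at -0.57 without WT library 1, 0.40 without WT library 2, -0.38 without HMGN1-OE library 1, and 0.18 without HMGN1-OE library 2. At 96 h it was 1.35 without WT library 1, 0.08 without WT library 2, 0.97 without HMGN1-OE library 1, and 0.43 without HMGN1-OE library 2. Of all tested genes 1.36% were called at 0 h, 1.26% at 36 h, and 0.669% at 96 h. With the libraries centred, again no member was called at any time, where 0.104%, 0.0521%, and 0.0608% of tested genes were. The 36 h libraries of HMGN1-OE lay under those of WT without overlap for 41 of 43 genes, as for 84.4% of tested genes, and centred the members' median difference was 0.07 (0.13 without HMGN1-OE library 1 and 0.02 without library 2). The test of whether the change over time differed between the genotypes called none of the 43 at 36 h or at 96 h on either scale, where it called 0.504% and 0.677% of tested genes as deposited and 0.0174% and 0.0347% with the libraries centred. An unadjusted p under 0.05 for it was found in 3 members at 96 h with the libraries centred, where 1224 of 11516 tested genes had one, and in none otherwise.

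With the libraries centred, the family at 96 h lay higher in HMGN1-OE, without a call. The difference was positive for 42 of 43 genes, with a median of 0.31 against -0.05 for all tested genes, and 28 genes were higher without overlap of the libraries, as were 21.7% of tested genes. Of the 43 genes 20 had an unadjusted p under 0.05, as did 2061 of 11516 tested genes, and 0 were called after adjustment by limma. Psmb8 differed by 0.53 ± 0.14 (SE, adjusted p = 0.218) and Psmb5 by 0.45 ± 0.14 (adjusted p = 0.218). The exception in sign was Psma8. The median difference was smaller when centred with a pseudocount of 0.1, at 0.24 against -0.01 for all tested genes. With quantile normalization it was 0.23 against 0.01.

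The size of this difference moved with single libraries of 96 h in both genotypes. Without WT library 1 the median was 0.47 and 13 genes were called higher, where 7.76% of tested genes were, and without WT library 2, the library with the lowest sum, the median was 0.16 and 0 were called. Without HMGN1-OE library 1 it was 0.42 and without library 2 it was 0.18, with 0 calls in both. Other cell markers also differed at 96 h. The 6 immature myeloid markers summed to 790.3 and 2302 FPKM in the HMGN1-OE libraries but to 669.5 and 117.5 FPKM in the WT libraries. Cd34 had the opposite sign to this sum, at 2.59 and 2.06 against 6.18 and 4.99 FPKM, and with the libraries centred 4 of the 6 were higher and 2 lower. The sum of 9 neutrophil markers was 121071 to 172960 in HMGN1-OE and 66987 to 96371 in WT, with S100a9 near 0 in 1 WT library. Most single neutrophil markers had the opposite sign to this sum, 6 of 9 being lower in HMGN1-OE as deposited (median -0.20) and 7 of 9 with the libraries centred (median -0.60, 7 without overlap). The sum of 5 eosinophil, basophil, and mast cell markers was 298 to 913 in HMGN1-OE and 1211 to 2460 in WT. Prg2 was the highest of the last list in WT. The part of these in the difference was not tested.

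**Figure D5:**
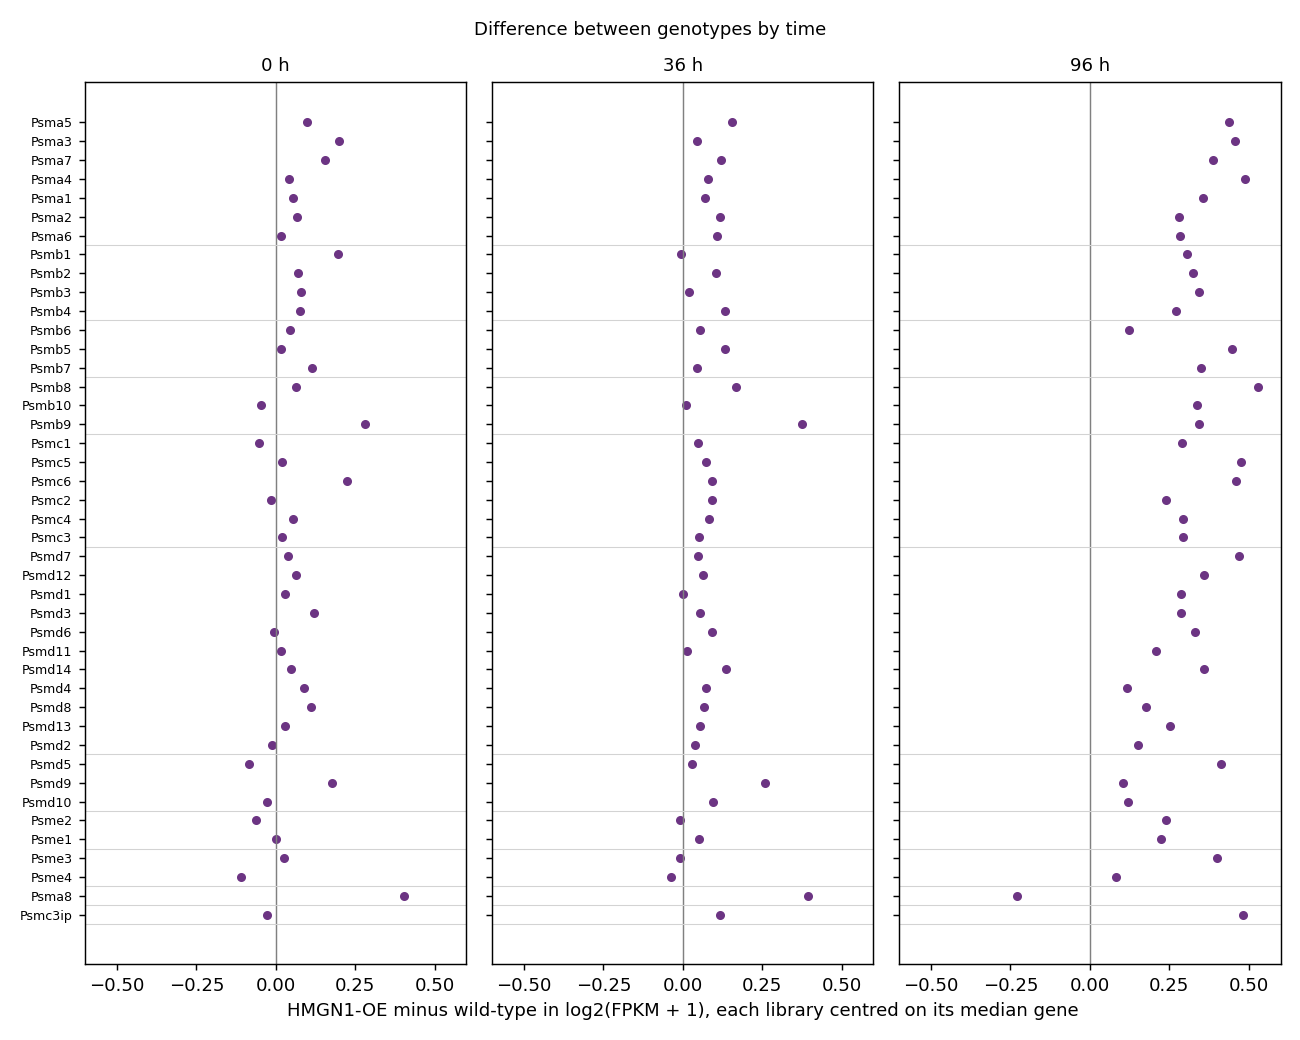
Each row is 1 of the 43 genes in the same order by role as in the plot of changes at 96 h, and each panel plots HMGN1-OE minus WT in log2(FPKM + 1) with libraries centred on their median gene, as a difference of group means of 2 libraries, at 0, 36, and 96 h. The medians are 0.05 (-0.0043 to 0.0994 with each library left out), 0.07, and 0.31, no gene was called at any time, and at 96 h 42 of 43 points lie to the right of 0.

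In the ratios of inducible to constitutive genes the genotypes differed by small amounts, and 2 against 2 libraries cannot go below an exact permutation p of 0.333. The log2 ratio of Psmb9 to Psmb6 was higher in HMGN1-OE without overlap at 36 h (by 0.32) and at 96 h (by 0.22). At 0 h it was 0.24 higher with overlap. The ratio of Psmb10 to Psmb7 was lower in HMGN1-OE without overlap at 0 h, by 0.16, and overlapped at the later times.

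Other genes of the pathway fell at 96 h as well. Of 23 genes of proteasome assembly and ubiquitin handling, 22 were called lower in WT and 19 in HMGN1-OE cells as deposited, where 77.2% and 62.4% of tested genes were. Centred, 14 were lower and 1 higher in WT, where 33.8% and 36.5% of tested genes were, and 14 lower and 2 higher in HMGN1-OE cells, where 32.5% and 30.9% were. The core assembly chaperone Psmg1 went from 62.9 and 107 to 8.61 and 2.60 FPKM in WT, a change of -1.98 relative to the median, and Psmg2 and Psmg3 changed by -1.94 and -1.88. Pomp, which matures the beta ring, changed by -1.15 in WT and -0.66 in HMGN1-OE cells. Nfe2l1, the transcription factor known to restore proteasome gene expression when the proteasome is inhibited, went from 37.7 and 75.00 to 16.1 and 7.47 FPKM in WT and was called lower relative to the median in both genotypes (-0.33 and -0.31). Shfm1, a small 19S subunit with a symbol outside the family, was called higher relative to the median in HMGN1-OE cells (0.89).

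The MHC class I genes that use the peptides of the immunoproteasome also fell. Of 10 genes, 10 were called lower in WT and 9 in HMGN1-OE cells as deposited, where 77.2% and 62.4% of tested genes were. Relative to the median 9 were called lower in each, where 33.8% and 32.5% of tested genes were, with medians of -1.12 and -0.86. Tap1, which shares its start region with Psmb9, went from 70.03 and 103 to 11.2 and 4.85 FPKM in WT and from 117 and 79.2 to 10.01 and 12.7 FPKM in HMGN1-OE cells. Nlrc5, the activator of MHC class I genes, went from 15.7 and 24.6 to 0.422 and 0.208 FPKM in WT and from 23.2 and 19.9 to 0.58 and 0.75 FPKM in HMGN1-OE cells. The classical heavy chain gene H2-K1 changed by -2.25 and -2.10 relative to the median. Tapbp, the tapasin gene, was the exception, at 0.40 in WT, where it was called higher, and 0.33 in HMGN1-OE cells, where it was not called.

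The interferon response genes were low. Of 12 listed genes 8 passed the filter. As deposited 1 was called higher (Irf7) and 1 lower (Irf8) in WT, and 2 higher (Irf7 and Isg15) and 1 lower (Gbp2) in HMGN1-OE cells. The libraries of Irf8 in WT overlapped, at 2.72 and 15.2 FPKM at 0 h and 2.86 and 2.58 FPKM at 96 h. Of all tested genes 4.31% were called higher and 77.2% lower in WT, and 5.08% and 62.4% in HMGN1-OE cells. Irf1, a known activator of Psmb9 and Tap1, was at 9.46 and 18.7 FPKM at 0 h and 12.2 and 6.36 FPKM at 96 h in WT and at 12.3 and 9.26 and 8.80 and 9.69 FPKM in HMGN1-OE cells. Relative to the median, 7 of the 8 were called higher in each genotype, where 36.5% of tested genes were in WT and 30.9% in HMGN1-OE cells. At these levels the pseudocount of 1 shrinks a fall while centring adds back the whole fall of the median gene, so the centred values of low genes with lower FPKM at 96 h lie too high. Gbp2 went from 0.672 and 1.48 FPKM at 0 h to 0.253 and 0.391 FPKM at 96 h in WT and yet had a centred change of 1.22.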

How the data were processed

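The authors extracted RNA from a fixed number of counted cells, added ERCC synthetic RNAs, prepared libraries from polyA RNA, and sequenced them on a NextSeq500. The study's methods name Bowtie as the aligner, while the submitters' processing notes list HISAT, Cufflinks 2.0.0, and the build mm9. The deposited values are FPKM per gene and library, normalized by the authors by loess on 92 ERCC RNAs. No read counts were used, so the depth is unknown and no counting error is given. Such FPKM compare transcript amounts per cell as far as the spike-in does, and a shift of a whole library by the spike-in moves all its genes together.

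Values were analysed as log2(FPKM + 1). The 11516 genes with 2 or more of 12 libraries at 1 FPKM or above entered limma 3.58.1 under R 4.3.3 (6 group means, eBayes with trend, two-sided tests, Benjamini-Hochberg adjustment over all of them), and an adjusted p under 0.05 counted as a call. The prior degrees of freedom were infinite, so a standard error as deposited does not hold a gene's own spread. With each library centred on its median gene they were 2.87. Genotype and time in the labels gave the groups. Ratios of 2 genes were compared with exact permutation tests over libraries in Python 3.11.15 with scipy 1.17.1, and the limma step was tested on simulated data. The motifs were searched in RefSeq promoter windows of 300 bases.

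Values in every library are given for the 6 catalytic genes, the 4 activators, and the 2 genes at either end of the order by change at 96 h in WT relative to the median. Other members were named by role. Some genes of the comparison lists are counted but not reported here by name. The members and lists were chosen with earlier results of these data known. The alternatives were quantile normalization, a pseudocount of 0.1, no filter, a mean of at least 5 FPKM, the groups compared alone, a fit without trend, and each library left out. Combinations of centring with another choice were added after seeing the data.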

Additional observations from a re-analysis of the deposited data

How the results depend on the processing

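The values have no read counts, the groups have 2 libraries each, and the whole-library shift by the spike-in differs between libraries of a group, which limits the comparisons as deposited more than those relative to the median. The calls of the family at 96 h as deposited ranged, with each library left out in turn, from 42 to 43 in WT and from 16 to 41 in HMGN1-OE cells, where 63.4% to 86.6% and 33.6% to 63.3% of all tested genes were called in either direction. The lone library left in a group was assumed to vary like the other groups. With a library left out, the family had 0 to 1 calls for HMGN1-OE against WT at 36 h, for 36 h against 0 h in WT, and for the interaction at 36 h, and the gene was Psma8, in fits that called up to 2.01%, 1.86%, and 1.41% of all tested genes. The fall of the ratio of Psmb8 to Psmb5 ran from -1.31 to -1.22 with a library left out, where 3 against 4 libraries cannot go below an exact permutation p of 0.0571. The ratio of Psmb10 to Psmb7 changed by -0.44 with a pseudocount of 0.1 and by -0.51 with quantile normalization, both at an exact permutation p of 0.0286. Relative to the median Psma8 changed sign, to 0.79 in WT and 0.15 in HMGN1-OE cells, and as deposited it ran from -2.38 to 0.26 in WT with a library left out. Psmd10 changed sign, to 0.057 (centred) and 0.13 (quantile) in WT and to 0.20 (centred) and 0.26 (quantile) in HMGN1-OE cells, and Psma6 to 0.13 in HMGN1-OE cells (quantile). Of the other genes named, Shfm1 changed sign to 0.26 (centred) and 0.52 (quantile) in WT and 0.89 and 0.93 in HMGN1-OE cells, Tapbp to 0.40 and 0.57 and to 0.33 and 0.43, and Gbp2 to 1.22 and 0.29 in WT and 0.54 (centred) in HMGN1-OE cells. With quantile normalization Psmd10 was called higher in HMGN1-OE cells (limma adjusted p = 0.0241). Centring with a pseudocount of 0.1, added after seeing the data, gave medians of -0.73 in WT and -0.52 in HMGN1-OE cells at 96 h, with 40 and 37 genes lower, against medians of -0.07 and -0.10 for all tested genes, of which 70.9% and 66.1% were called in either direction. Psmd10 was then called higher in HMGN1-OE cells, as it was with centring and a mean of at least 5 FPKM, also added after seeing the data. The cause was not tested. No paired analysis was possible because the columns carry no replicate number shared with the sample names.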

Other observations

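In each of the 6 groups, the library with the higher Psma8 level was also the library with the higher level of the homeobox gene Hoxa9. Hoxa9 was chosen after its values were seen. The share of all tested genes that follow Psma8 in this way was not computed, and a relation was not tested. Hoxa9 was at 2.99 and 0.23 FPKM at 0 h, 0.164 and 7.06 FPKM at 36 h, and 0.828 and 0.0341 FPKM at 96 h in WT, in the library order used for Psma8. In HMGN1-OE cells it was at 31.5 and 6.87, 6.17 and 24.6, and 0.588 and 4.22 FPKM.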
